A study of Homo sapiens with 9 samples.

Results

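The genes described here are the translation initiation factors and the aminoacyl-tRNA synthetases, measured in macrophage-like human cells after exposure to osimertinib, cisplatin or vehicle. Members were taken by symbol: every named gene whose symbol begins with EIF and a digit of the initiation factor series, every synthetase symbol of the form AARS1 or KARS1, and EPRS1, FARSA and FARSB, of which EPRS1 was named. The rule, which used no measured value, found 43 of the 14884 genes named on the array. Of these, 26 belonged to the initiation factor family, counting the eIF2 alpha kinases and the eIF4E-binding proteins that carry EIF symbols, and 17 were synthetases. Where a gene had several rows in the table, which was so for EIF4B, VARS1 and WARS1, the brightest row was used.

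The cells were THP-1, a human monocytic leukaemia line. In all groups they had been brought to a macrophage-like state, called M0, with the phorbol ester PMA (phorbol 12-myristate 13-acetate), so the vehicle arrays show differentiated cells too. The 3 groups received 100 nM osimertinib (a covalent inhibitor of mutant epidermal growth factor receptor), 0.5 µM cisplatin (a platinum compound that forms DNA crosslinks) or vehicle, each for 16 h and with 3 replicates, which per the labels are separate biological ones. The sample titles state the 16 h for the drug arrays and give no time for vehicle, which was taken as 16 h. Each group is thus 1 cell line at 1 dose and 1 time. RNA of each replicate was hybridised to its own Affymetrix Human Gene 2.0 ST array, and the values given below are levels on a log2 scale, 1 value per array, with replicates always in the order 1, 2 and 3.

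Initiation is the step at which a ribosome is brought to a messenger RNA and finds its start codon. eIF4 factors bind the cap and unwind the leader, eIF2 brings the initiator tRNA, and eIF1, eIF1A, eIF5 and eIF5B set the start site and join the subunits. Synthetases load each tRNA with its amino acid. When stress activates one of the kinases that phosphorylate eIF2 alpha, general initiation slows while the transcription factor ATF4 is made, and many synthetase genes are known ATF4 targets through a CARE site in their promoters.

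Named coverage of the machinery was partial. Of 93 genes listed by role, 41 were named here, and 0 of the 14 eIF3 subunits, 0 of the 5 eIF2B subunits and 0 of the 17 mitochondrial synthetases were among them, so these were not analysed here. Among members, 39 lay at or above the level limit of 4.28, the median of all named genes, and were tested with 7442 genes in all. All 17 synthetases passed. The 4 members below the limit were the non-coding transcripts EIF1B-AS1 and EIF3J-DT, the oocyte-type cap-binding gene EIF4E1B and EIF5AL1, a gene copy closely related to EIF5A, with means over the 9 arrays of 2.69, 3.74, 3.98 and 3.20. The tested member nearest the limit was EIF5A at 4.39, and the brightest was EIF4EBP2 at 9.74.

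Across the series, array medians lay between 3.29 and 3.37, and pairs of arrays correlated at 0.943 to 0.991 over the tested genes. The number of arrays, 3 a group, limits the precision. Of 10 monocyte and macrophage markers, 7 were named and 6 passed the level limit. The receptor CSF1R (mean level 8.83) and the lysosomal protein CD68 (9.71) rose with both drugs, by 0.29 and 0.30 with osimertinib and 0.50 and 0.51 with cisplatin. SPI1 (7.22) differed by -0.0005 with osimertinib and 0.02 with cisplatin and did not pass. TLR2 fell with osimertinib (-0.82), CD14 (4.30) and MSR1 (4.68) stood near the limit, and lysozyme, LYZ, was below it at 3.25. Among 12 markers of T cells, B cells, epithelium and fibroblasts, 3 were named. CD2 (3.07) and EPCAM (2.84) were below the limit, and the keratin KRT18 (7.49) fell by 0.30 with osimertinib and by 0.35 with cisplatin. The part of these shifts in the results below was not tested. In a culture, fewer cells of a kind and less RNA per cell cannot be told apart.

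Promoter sequence was looked at first, since synthetase genes are known for sharing the CARE site. RefSeq promoters (build GRCh38.p14, 250 bases before to 50 bases after each start) were held for 38 of the 43 members. The CARE core was searched as TGATGCAA on both strands, and again as TGATGNAA, which includes every match of the first. The exact core occurred in 304 of 35116 promoters, or 0.866%. Among members it occurred in 6 of 38, and all 6 were synthetases, out of 14 synthetases with a promoter: AARS1, CARS1, IARS1, MARS1, NARS1 and TARS1. Some genes have several starts: the table held 27305 genes, of which 1.08% had the core at 1 start or more, and 11 members had over 1 start. The windows of these 6 are printed because the core is shared by synthetases that rose and by others that did not pass the test. Each is 30 bases, read along the gene's own strand, with the core or its reverse complement in capitals.
AARS1, chr16:70289675-70289704, minus strand: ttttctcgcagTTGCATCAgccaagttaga
NARS1, chr18:57621804-57621833, minus strand: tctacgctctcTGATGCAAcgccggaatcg
IARS1, chr9:92293692-92293721, minus strand: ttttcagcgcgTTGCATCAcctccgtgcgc
CARS1, chr11:3057407-3057436, minus strand: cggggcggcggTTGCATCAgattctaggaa
MARS1, chr12:57488053-57488082, plus strand: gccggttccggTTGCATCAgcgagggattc
TARS1, chr5:33440956-33440985, plus strand: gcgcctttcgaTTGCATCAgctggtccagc
The core began at positions -13, -4, -2 and 3 from the start for IARS1, MARS1, CARS1 and TARS1, where 1 is the first transcribed base, so these 4 matches lay within a few bases of the start. In NARS1 it lay just inside the transcript, at 15. In AARS1 it lay far upstream, at -187, and the 250 bases before that start are shown with the match in capitals.
AARS1 upstream, chr16:70289507-70289756, minus strand: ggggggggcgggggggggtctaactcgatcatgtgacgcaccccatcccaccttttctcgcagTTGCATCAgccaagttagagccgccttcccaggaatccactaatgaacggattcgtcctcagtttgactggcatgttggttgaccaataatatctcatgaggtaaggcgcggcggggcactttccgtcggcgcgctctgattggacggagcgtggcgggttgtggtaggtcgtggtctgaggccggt
With any base at position 6 the motif occurred in 3.62% of promoters (4.46% of genes) and was added in GARS1 and in EIF4E3, which encodes a cap-binding protein.
GARS1, chr7:30594834-30594863, plus strand: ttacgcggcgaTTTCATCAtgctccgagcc
EIF4E3, chr3:71729113-71729142, minus strand: tgccatggtgaTGATGAAAgttgggctgat
A match describes letters in a window and says nothing on whether a factor bound there.

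The palindrome CACGTG, the E-box that MYC and TFEB family factors are known to bind, was present in 7.26% of promoters (8.77% of genes) and in 9 of 38 members. The 9 were EIF1B, its antisense neighbour EIF1B-AS1, EIF2AK2, EIF4A3, EIF4B, EIF4E, EIF4H, EIF5A2 and IARS1. EIF1B and EIF1B-AS1 share 1 match, because their promoters overlap head to head. The windows of EIF4A3 and EIF4H, the initiation members with matches that later appear among the called genes, are printed with the E-box in capitals.
EIF4A3, chr17:80147232-80147261, minus strand: ccagttccctttCACGTGacgaagagtgcc
EIF4H, chr7:74174145-74174174, plus strand: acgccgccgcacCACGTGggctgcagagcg
The E-box began at -121 in EIF4A3 and at -199 in EIF4H. IARS1 was the member whose window held both an exact CARE core and an E-box, with the E-box at -186.

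**Figure D1:**
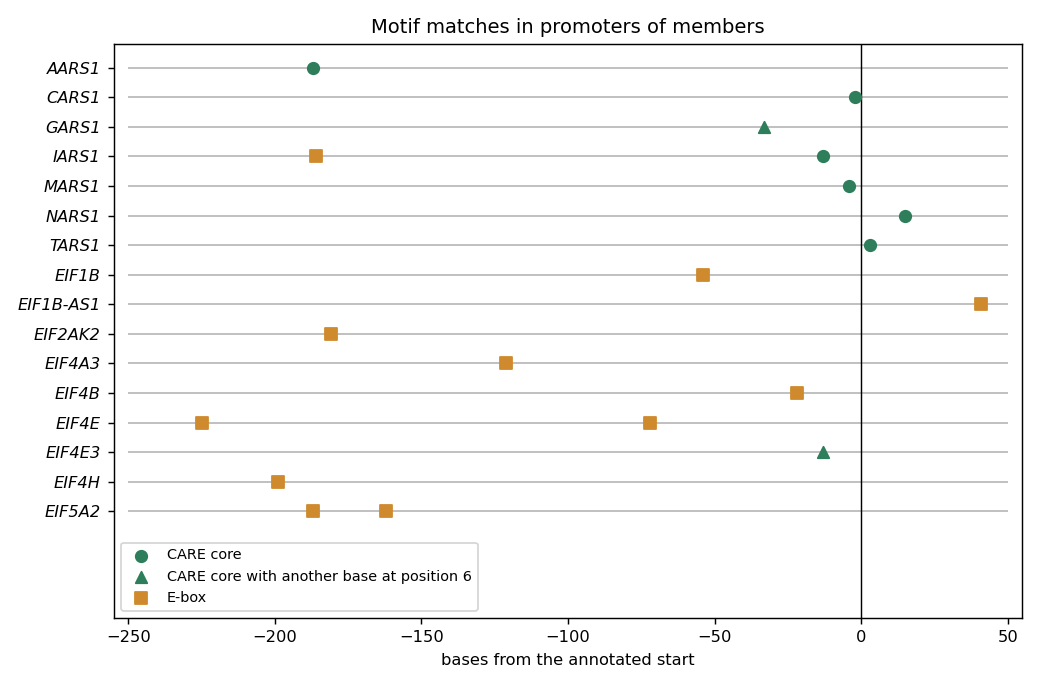
Positions of CARE core and E-box matches in the promoter windows of members, as distance from the transcription start in bases (x axis, from 250 before to 50 after), with 1 line per gene. Matches of the CARE core in IARS1, MARS1, CARS1 and TARS1 lie close to the start, and that of AARS1 lies far upstream.

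The first comparison asked how the synthetases differed between drug-treated and vehicle-treated cells. With osimertinib, 8 of 17 rose, 1 fell and 8 did not pass the test, and their median difference was 0.27 on the log2 scale. With cisplatin, 7 rose, 1 fell and 9 did not pass, with a median of 0.17. Over all 7442 tested genes, osimertinib raised 16.9% and lowered 13.7% with a median of 0.04, and cisplatin raised 16.5% and lowered 14.5% with a median of 0.03. All 3 osimertinib arrays lay above all 3 vehicle arrays in 12 of the 17 synthetases, against 24.6% of all tested genes, and below them in 2, against 19.5%. For cisplatin the counts were 6 above and 3 below, against 22.5% and 19.8%. Both comparisons use the same 3 vehicle arrays, so their values are given side by side and are not independent of each other.

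AARS1, the alanyl-tRNA synthetase, had the largest osimertinib difference of all members. Its level was 7.99, 8.08 and 8.06 with osimertinib, 7.70, 7.83 and 7.95 with cisplatin and 7.49, 7.52 and 7.37 with vehicle. The groups did not overlap, and the osimertinib arrays lay highest. The difference from vehicle was 0.58 (SE 0.0739, adjusted p = 5.87e-05) with osimertinib, a 1.5-fold rise, and 0.37 (SE 0.0739, adjusted p = 0.002) with cisplatin, or 1.29-fold. KARS1, which loads lysine and feeds both the cytosol and mitochondria, read 7.21, 7.01 and 7.01 with osimertinib, 7.01, 7.30 and 7.18 with cisplatin and 6.54, 6.67 and 6.64 with vehicle. Every treated array exceeded every vehicle array. It rose by 0.46 (SE 0.0909, adjusted p = 0.00182) with osimertinib and by 0.55 (SE 0.0909, adjusted p = 0.000498) with cisplatin. NARS1, for asparagine, measured 8.81, 8.65 and 8.53 with osimertinib, 8.44, 8.61 and 8.62 with cisplatin and 8.07, 8.24 and 8.29 with vehicle. Treated and vehicle arrays were again apart, by 0.46 (SE 0.0809, adjusted p = 0.000698) with osimertinib and 0.35 (SE 0.0809, adjusted p = 0.00467) with cisplatin. IARS1, for isoleucine, gave 8.33, 8.32 and 8.21 with osimertinib, 8.24, 8.49 and 8.41 with cisplatin and 7.98, 7.95 and 8.06 with vehicle. Its treated arrays all lay above the vehicle arrays, with differences of 0.29 (SE 0.0703, adjusted p = 0.0066) for osimertinib and 0.39 (SE 0.0703, adjusted p = 0.000952) for cisplatin. These 4 rises passed with both drugs under each of the 15 alternatives run.

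RARS1, for arginine, stood at 7.47, 7.38 and 7.26 with osimertinib, 7.05, 7.29 and 7.25 with cisplatin and 6.87, 6.82 and 7.09 with vehicle. The osimertinib arrays were clear of the vehicle arrays, and cisplatin replicate 1 lay within the vehicle range. The rise was 0.44 (SE 0.093, adjusted p = 0.00259) with osimertinib and 0.27 (SE 0.093, adjusted p = 0.041) with cisplatin. The cisplatin call was lost without vehicle replicate 1 or 2, cisplatin replicate 2 or 3, or osimertinib replicate 2 (adjusted p = 0.0549 to 0.151). It was also lost with no level limit or without a variance trend (adjusted p = 0.0673 to 0.0796). YARS1, for tyrosine, showed 5.29, 5.18 and 5.36 with osimertinib, 5.17, 5.23 and 5.17 with cisplatin and 4.89, 4.94 and 4.91 with vehicle. No treated array reached down to the vehicle arrays, and the differences were 0.36 (SE 0.0942, adjusted p = 0.00995) with osimertinib and 0.28 (SE 0.0942, adjusted p = 0.0389) with cisplatin. The cisplatin call was lost when any 1 vehicle or cisplatin replicate was left out (adjusted p = 0.0517 to 0.106). The same was so with no level limit (adjusted p = 0.0545). GARS1, for glycine, which also serves mitochondria, had levels of 7.49, 7.29 and 7.25 with osimertinib, 7.21, 7.43 and 7.32 with cisplatin and 6.99, 7.15 and 7.06 with vehicle. Both treated groups lay above vehicle, by 0.28 (SE 0.0857, adjusted p = 0.0253) with osimertinib and 0.25 (SE 0.0857, adjusted p = 0.0384) with cisplatin. The osimertinib call was lost without vehicle replicate 1 or 3 or osimertinib replicate 1 (adjusted p = 0.0698 to 0.11), and the cisplatin call without vehicle replicate 1 or 3 or cisplatin replicate 2 or 3 (adjusted p = 0.0878 to 0.145). Without a change of arrays, the osimertinib call was lost with no level limit (adjusted p = 0.0511), and the cisplatin call with no level limit or without a variance trend (adjusted p = 0.065 to 0.0731).

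EPRS1, the joined synthetase for glutamate and proline, averaged 8.29 ± 0.0923 with osimertinib, 8.19 ± 0.0742 with cisplatin and 8.08 ± 0.0827 with vehicle (SD, n = 3 each). It rose with osimertinib, by 0.21 (SE 0.0683, adjusted p = 0.0306), and the cisplatin difference was 0.11 (SE 0.0683, adjusted p = 0.247). The osimertinib call was lost without vehicle replicate 1 or 3 or osimertinib replicate 1 or 2 (adjusted p = 0.0566 to 0.123). It did not pass with no level limit or without a variance trend (adjusted p = 0.0583 to 0.0792) either. QARS1, which loads glutamine, was the synthetase that fell. Its level was 7.63, 7.80 and 7.73 with osimertinib, 7.61, 7.77 and 7.77 with cisplatin and 7.83, 8.01 and 7.95 with vehicle. All treated arrays lay below all vehicle arrays, with differences of -0.21 (SE 0.0742, adjusted p = 0.0453) for osimertinib and -0.21 (SE 0.0742, adjusted p = 0.0468) for cisplatin. Both calls sat close to the threshold. The osimertinib call was lost without vehicle replicate 2 or 3, cisplatin replicate 2 or 3, or osimertinib replicate 1 or 3 (adjusted p = 0.0529 to 0.166). The cisplatin call was lost without vehicle replicate 2 or 3, any cisplatin replicate, or osimertinib replicate 2 or 3 (adjusted p = 0.0529 to 0.17). Other settings ended these calls too: the osimertinib call was lost with no level limit, with median centring or without a variance trend (adjusted p = 0.0826 to 0.203), and the cisplatin call with no level limit, with median centring or without a variance trend (adjusted p = 0.0843 to 0.146).

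**Figure D2:**
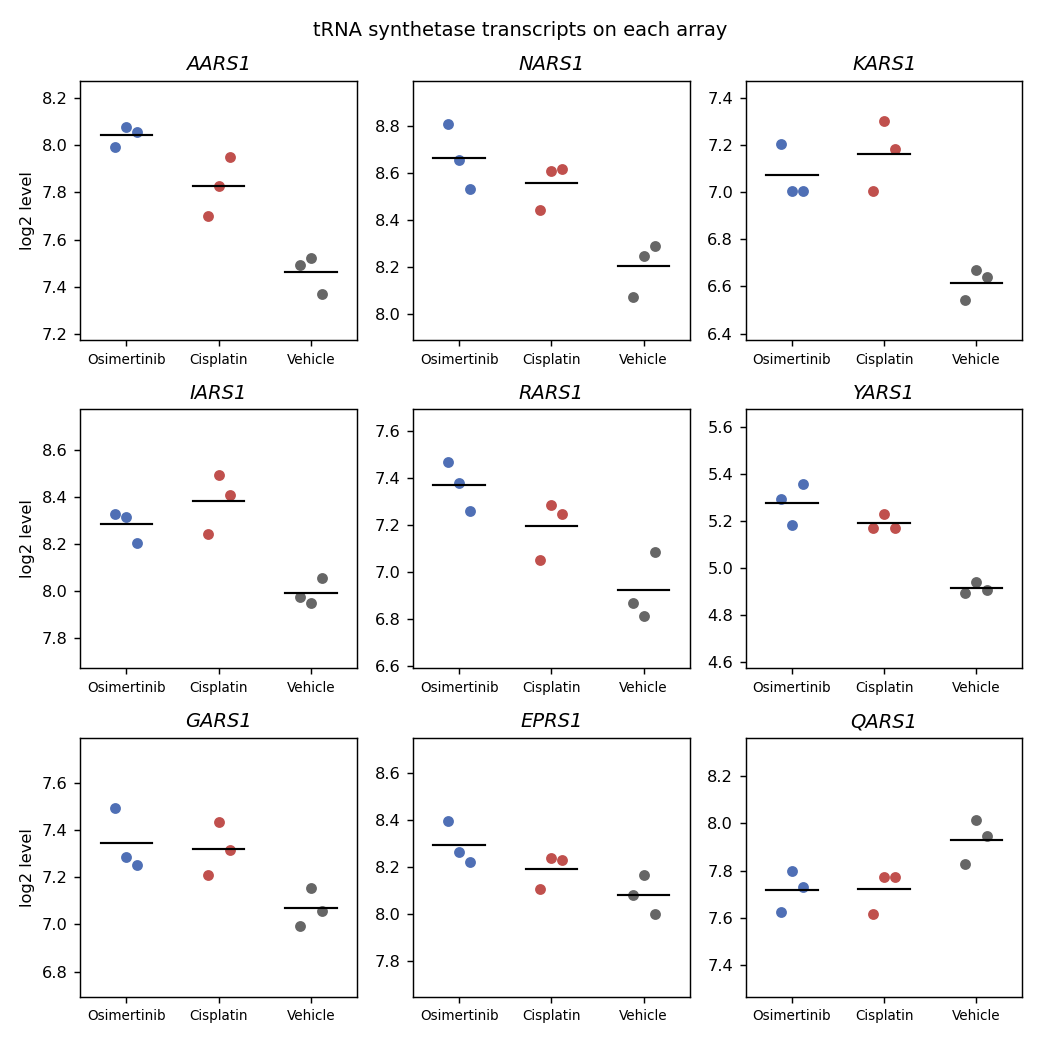
Log2 level of 9 synthetases on each array, with osimertinib, cisplatin and vehicle from left to right. Each point is 1 array and each bar a group mean of 3 arrays. The treated arrays of AARS1, KARS1, NARS1 and IARS1 all lie above the vehicle arrays, and those of QARS1 lie below.

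The remaining 8 synthetases passed the test with neither drug. Osimertinib differences were positive for CARS1 (0.24), HARS1 (0.27), SARS1 (0.28), TARS1 (0.12) and VARS1 (0.26), which load cysteine, histidine, serine, threonine and valine. Adjusted p was 0.0622 for SARS1 and 0.0736 for VARS1, the nearest to the threshold of these. LARS1, for leucine, and MARS1, for methionine, differed by 0.01 and 0.05 with osimertinib and by -0.10 and 0.04 with cisplatin, the 95% interval for LARS1 with osimertinib running from -0.12 to 0.15. WARS1, for tryptophan and known as an interferon-induced gene, differed by -0.20 (SE 0.0778, adjusted p = 0.0715) with osimertinib and -0.21 (SE 0.0778, adjusted p = 0.0513) with cisplatin. Its treated arrays lay below its vehicle arrays, but a dimmer row of the same gene ran the other way. By genome coordinates MARS1 overlaps DDIT3, EIF2AK1 overlaps the synthetase scaffold gene AIMP2, and YARS1 overlaps S100PBP. Strands were not compared, and whether any probe reads both genes of a pair was not tested.

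Set beside the promoter windows printed above, the 6 genes with an exact CARE core split evenly by call. AARS1, IARS1 and NARS1 rose with both drugs, while CARS1, MARS1 and TARS1 did not pass with either. CARS1, MARS1 and TARS1 differed from vehicle by 0.24, 0.05 and 0.12 with osimertinib and by 0.13, 0.04 and 0.09 with cisplatin. Whether they differ from the genes that rose was not tested. GARS1, with the looser match, rose with both. KARS1, RARS1, QARS1 and EPRS1 had no match of either form in the window, and their windows were searched in the same way. YARS1 had no promoter entry and was not searched.

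The synthetases were also grouped by fold and by assembly, with groupings drawn up after values had been seen. Of the 7 class II enzymes, 4 rose with each drug (AARS1, GARS1, KARS1 and NARS1) and 0 fell, with median differences of 0.28 for osimertinib and 0.25 for cisplatin. Of the 9 class I enzymes, 3 rose with each drug (IARS1, RARS1 and YARS1) and QARS1 fell, with medians of 0.24 for osimertinib and 0.13 for cisplatin. In the multi-synthetase complex, a cytosolic assembly held together by AIMP scaffold proteins, 7 members were measured. Osimertinib raised 4 of them (EPRS1, IARS1, KARS1 and RARS1), cisplatin raised 3 (the same without EPRS1), and QARS1 fell with each. Of 10 free enzymes, 4 rose with each drug (AARS1, GARS1, NARS1 and YARS1) and 0 fell. Of all tested genes, osimertinib raised 16.9% and lowered 13.7%, and cisplatin raised 16.5% and lowered 14.5%. Whether 0 falls among 7 or 10 genes departs from these shares was not tested. In these groupings only QARS1 fell, and of the 15 alternatives its call was lost in 9 with osimertinib and 10 with cisplatin. The difference between these classes, or between complex and free enzymes, was not tested.

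The same comparison was made for the initiation factor family. Of 22 tested with osimertinib, 5 rose, 1 fell and 16 did not pass, with a median of 0.07. With cisplatin 4 rose, 1 fell and 17 did not pass, with a median of 0.06. The share called was thus close to that of all tested genes, where osimertinib changed 30.6% and cisplatin 31%. Osimertinib arrays lay wholly above vehicle in 6 of the 22, against 24.6% of all tested genes, and wholly below in 2, against 19.5%. Cisplatin arrays lay wholly above in 5 (22.5% of all) and wholly below in 2 (19.8%).

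The eIF4 group held both the largest cisplatin rise among members and members that did not move past the test. EIF4A3, a helicase of the eIF4A family known chiefly as a core part of the exon junction complex that marks spliced messenger RNA, read 6.76, 6.81 and 6.65 with osimertinib, 6.65, 6.93 and 6.98 with cisplatin and 6.30, 6.36 and 6.04 with vehicle. Its treated arrays lay clear of vehicle, and it rose by 0.51 (SE 0.107, adjusted p = 0.00281) with osimertinib and by 0.62 (SE 0.107, adjusted p = 0.000664) with cisplatin, or 1.54-fold. EIF4H, which stimulates the eIF4A helicase, gave 7.90, 7.85 and 7.85 with osimertinib, 7.92, 8.05 and 8.07 with cisplatin and 7.64, 7.57 and 7.71 with vehicle. The 3 groups did not overlap, and cisplatin stood highest. It rose by 0.23 (SE 0.0652, adjusted p = 0.0163) with osimertinib and 0.37 (SE 0.0652, adjusted p = 0.000705) with cisplatin, and the osimertinib call was lost without vehicle replicate 2 or osimertinib replicate 1 (adjusted p = 0.0521 to 0.0713). EIF4E, the cap-binding protein itself, measured 6.14, 5.94 and 6.10 with osimertinib, 5.97, 6.06 and 6.10 with cisplatin and 5.77, 6.01 and 6.10 with vehicle. Its groups overlapped, and the differences were 0.10 (SE 0.103, adjusted p = 0.498) with osimertinib and 0.08 (SE 0.103, adjusted p = 0.585) with cisplatin. EIF4B, EIF4E2 and EIF4E3 also did not pass, with differences from -0.05 to 0.11 for osimertinib and from -0.09 to 0.04 for cisplatin.

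Of the proteins that bind eIF4E and hold it away from the cap complex, EIF4EBP1 stood at 5.56, 5.64 and 5.50 with osimertinib, 5.56, 5.56 and 5.56 with cisplatin and 5.22, 5.65 and 5.56 with vehicle. Its groups overlapped, with differences of 0.09 (SE 0.113, adjusted p = 0.591) for osimertinib and 0.08 (SE 0.113, adjusted p = 0.623) for cisplatin. EIF4EBP2 averaged 9.70 ± 0.0149 with osimertinib, 9.69 ± 0.0777 with cisplatin and 9.83 ± 0.0492 with vehicle (SD, n = 3 each). It fell with cisplatin, by 0.15 (SE 0.0476, adjusted p = 0.032), and the osimertinib difference was -0.13 (SE 0.0476, adjusted p = 0.0525). The cisplatin call was lost without vehicle replicate 1 or 2 or cisplatin replicate 2 or 3 (adjusted p = 0.0981 to 0.122). It was lost too with no level limit, with median centring or without a variance trend (adjusted p = 0.058 to 0.16). EIF4ENIF1, a transporter that carries eIF4E into the nucleus and into processing bodies, had 5.53, 5.63 and 5.47 with osimertinib, 5.39, 5.90 and 5.74 with cisplatin and 5.86, 5.81 and 6.02 with vehicle. Osimertinib arrays lay below vehicle arrays and cisplatin arrays overlapped them. It fell with osimertinib, by 0.36 (SE 0.125, adjusted p = 0.0445), and the cisplatin difference was -0.22 (SE 0.125, adjusted p = 0.203). The osimertinib call was lost without any 1 vehicle or osimertinib replicate and without cisplatin replicate 3 (adjusted p = 0.0577 to 0.157). The call was likewise lost with no level limit, with quantile normalization, with median centring or without a variance trend (adjusted p = 0.0508 to 0.113).

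Of 6 factors that act in start site selection, subunit joining or carry an eIF1 or eIF1A domain, 2 rose with osimertinib and 1 with cisplatin. Osimertinib raised 16.9% of all tested genes and cisplatin 16.5%. EIF1, which guards the fidelity of start codon choice, was measured at 8.08, 8.26 and 8.06 with osimertinib, 7.83, 7.97 and 8.03 with cisplatin and 7.77, 7.80 and 7.87 with vehicle. The osimertinib arrays lay above all others, while cisplatin and vehicle overlapped. It rose by 0.32 (SE 0.0729, adjusted p = 0.00442) with osimertinib, and the cisplatin difference was 0.13 (SE 0.0729, adjusted p = 0.201). EIF1AD, named for its eIF1A-like domain and not itself one of the classical factors, showed 7.67, 7.44 and 7.45 with osimertinib, 7.40, 7.75 and 7.75 with cisplatin and 7.03, 7.09 and 7.27 with vehicle. All treated arrays exceeded all vehicle arrays, with rises of 0.39 (SE 0.104, adjusted p = 0.011) with osimertinib and 0.51 (SE 0.104, adjusted p = 0.00222) with cisplatin. The osimertinib call was lost without vehicle replicate 1 or osimertinib replicate 1 (adjusted p = 0.0502 to 0.0557). EIF1B, EIF5, EIF5B and EIF6 did not pass with either drug. Their osimertinib differences ran from -0.22 for EIF5, the GTPase activator of eIF2, to 0.22 for EIF1B, a paralogue of EIF1. EIF2D, which can place initiator tRNA without eIF2, differed by -0.03 with osimertinib and -0.17 with cisplatin. Neither EIF5A nor EIF5A2, known for easing ribosome stalls, passed, with osimertinib differences of -0.14 and 0.25 and cisplatin differences of -0.14 and 0.29.

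All 4 eIF2 alpha kinases were measured, and 1 rose with each drug. Among all tested genes, 16.9% rose with osimertinib and 16.5% with cisplatin. EIF2AK1, the haem-regulated kinase also known as HRI, stood at 7.59, 7.56 and 7.49 with osimertinib, 7.37, 7.49 and 7.55 with cisplatin and 7.12, 7.13 and 7.27 with vehicle. Treated and vehicle arrays did not overlap, and the rise was 0.37 (SE 0.0732, adjusted p = 0.00171) with osimertinib and 0.30 (SE 0.0732, adjusted p = 0.00768) with cisplatin. Both calls held under the 15 alternatives. EIF2AK3, the endoplasmic reticulum kinase PERK, read 5.72, 5.45 and 5.27 with osimertinib, 5.39, 5.46 and 5.68 with cisplatin and 5.26, 5.45 and 5.45 with vehicle. EIF2AK4, the amino acid sensor GCN2, measured 6.47, 6.51 and 6.53 with osimertinib, 6.26, 6.63 and 6.47 with cisplatin and 6.47, 6.47 and 6.54 with vehicle. The groups overlapped for both kinases. EIF2AK3 differed by 0.10 (SE 0.127, adjusted p = 0.61) with osimertinib and 0.13 (SE 0.127, adjusted p = 0.486) with cisplatin. For EIF2AK4 the 95% interval was -0.19 to 0.21 with osimertinib and -0.24 to 0.16 with cisplatin. EIF2AK2, the double-stranded RNA sensor PKR, differed by -0.10 (SE 0.0823, adjusted p = 0.41) with osimertinib and by -0.18 (SE 0.0823, adjusted p = 0.11) with cisplatin. Levels of kinase transcripts do not measure kinase activity.

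**Figure D3:**
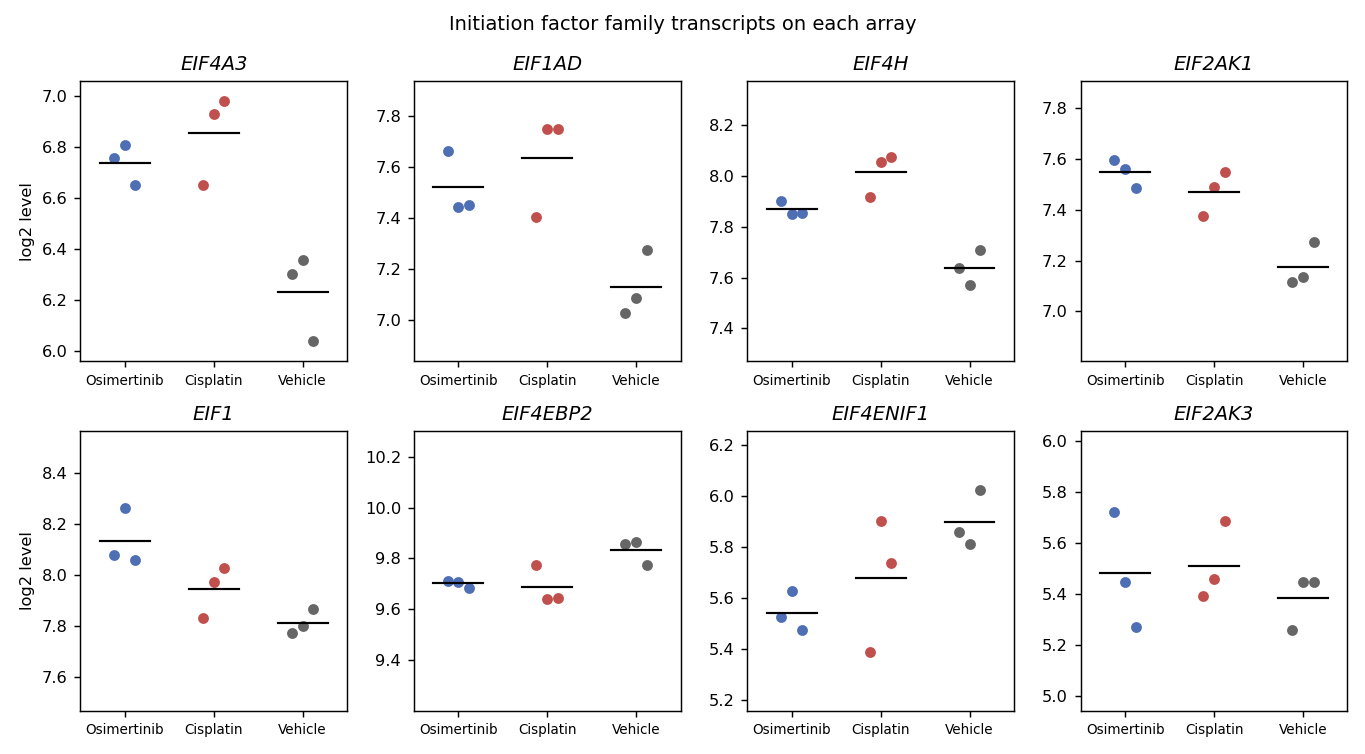
Log2 level of 8 members of the initiation factor family on each array, with osimertinib, cisplatin and vehicle from left to right. Each point is 1 array and each bar a group mean of 3 arrays. EIF4A3, EIF1AD, EIF4H and EIF2AK1 lie above vehicle on all treated arrays, and the groups of EIF2AK3 overlap.

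**Figure D4:**
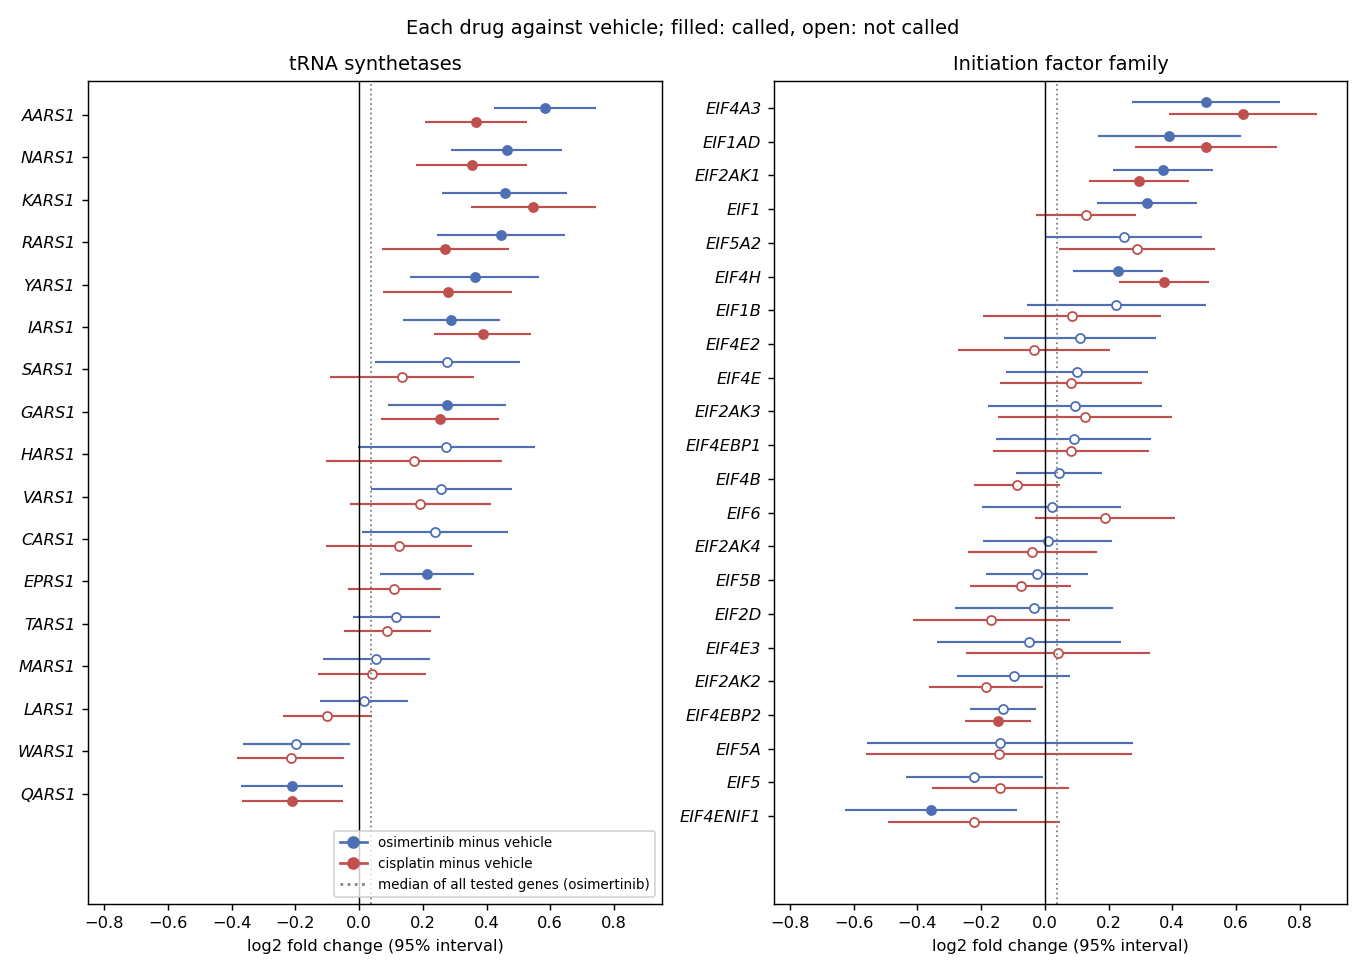
Log2 difference from vehicle for each of the 39 tested members, osimertinib and cisplatin, with 95% intervals from the fit. Filled points passed the test after adjustment over all tested genes, and the dotted line is the osimertinib median of all tested genes at 0.04. Most synthetases lie to the right of that line, and the initiation factor family is spread on both sides of it.

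The second comparison set the drugs against each other. Of all tested genes 1.75% differed between osimertinib and cisplatin, 0.766% higher and 0.981% lower with osimertinib, and 0 of the 39 members did. The members' differences ran from -0.17 to 0.22. At an unadjusted p under 0.05 the limma test passed 3 members, against 11.7% of all tested genes, and these were AARS1, EIF1 and EIF4H. AARS1 was higher with osimertinib by 0.22 (95% interval 0.06 to 0.38, adjusted p = 0.222) and EIF1 by 0.19 (adjusted p = 0.29). EIF4H was -0.15 with osimertinib relative to cisplatin (adjusted p = 0.403). In each of these 3 the arrays of the drugs did not overlap, and no other member showed that. Of all tested genes, osimertinib arrays lay wholly above cisplatin arrays in 7.44% and wholly below in 6.88%. A p that misses the threshold does not show that the drugs acted alike: for KARS1 the interval was -0.29 to 0.11, and for EIF4A3 -0.35 to 0.12. The count stayed at 0 under the 15 alternatives, those without a variance trend and with quantile normalization included.

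**Figure D5:**
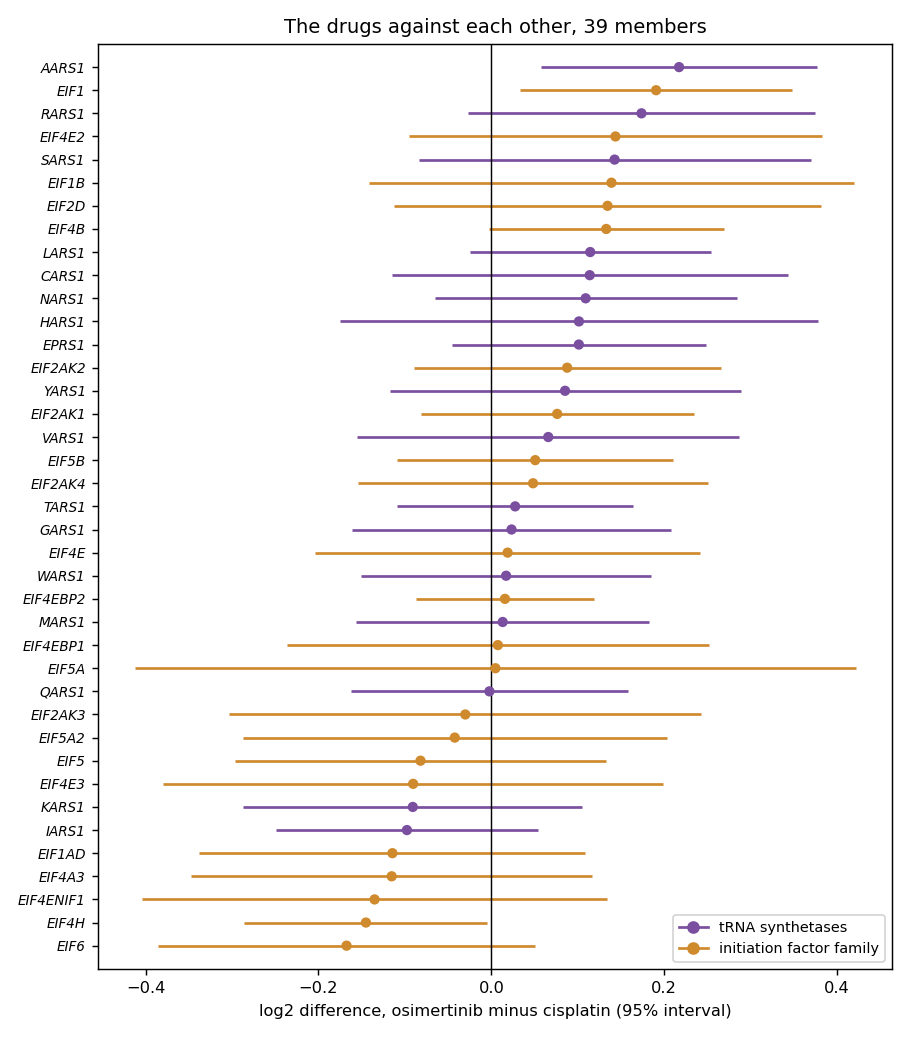
Osimertinib minus cisplatin, on the log2 scale, for the 39 tested members with 95% intervals from the fit. No member passed the test after adjustment, and AARS1, EIF1 and EIF4H have intervals that leave out 0.

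Arrays within a group differed in ways that touched the members. Cisplatin replicate 1 was the lowest of its 3 arrays in 31 of the 39 members (79.5%), against 65.0% of all tested genes, and in 15 of the 17 synthetases. Osimertinib replicate 1 was the highest of its group in 26 members (66.7%), against 50.5%, and in 13 synthetases. The part of these arrays in each result was not tested beyond leaving them out. Without osimertinib replicate 1 the count of synthetases that rose with osimertinib was 6, and that of initiation members 3. Without cisplatin replicate 1, 7 synthetases and 4 initiation members rose with cisplatin. The synthetases that rose with cisplatin came to 4 without vehicle replicate 1, cisplatin replicate 2 or cisplatin replicate 3.

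Genes around the members came from lists of the same pathway. AIMP1, a scaffold of the multi-synthetase complex and the 1 listed scaffold that was named, rose by 0.29 (SE 0.102, adjusted p = 0.0461) with osimertinib and 0.34 (SE 0.102, adjusted p = 0.0215) with cisplatin. Its osimertinib call was lost without vehicle replicate 1 or 2, cisplatin replicate 2 or 3, or osimertinib replicate 1 or 2 (adjusted p = 0.0529 to 0.178) and with no level limit or without a variance trend (adjusted p = 0.055 to 0.0845). Its cisplatin call was lost without vehicle replicate 1 or 2 or cisplatin replicate 3 (adjusted p = 0.0679 to 0.0859). In the list of the eIF2 stress response, 4 genes were tested, the transcription factors ATF3, ATF4 and ATF5 and the pseudokinase TRIB3, of which 1 rose with osimertinib and 0 with cisplatin. At an unadjusted p under 0.05 that list had 1 gene with each drug, where all tested genes had 40.4% with osimertinib and 40.7% with cisplatin. ATF3, a stress-induced factor, differed by 0.27 (SE 0.0908, adjusted p = 0.0384) with osimertinib and 0.22 (SE 0.0908, adjusted p = 0.0855) with cisplatin. That osimertinib call was lost without vehicle replicate 1 or 3, cisplatin replicate 3, or osimertinib replicate 1 or 3 (adjusted p = 0.0532 to 0.14). It was lost as well with no level limit or without a variance trend (adjusted p = 0.0616 to 0.0741). ATF4 transcript differed by 0.11 (SE 0.0839, adjusted p = 0.373) with osimertinib and 0.02 (SE 0.0839, adjusted p = 0.911) with cisplatin.

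Of 8 tested metabolic and transport genes known as ATF4 targets, 4 rose with each drug and 0 fell, with medians of 0.32 for osimertinib and 0.22 for cisplatin. Of all tested genes 16.9% rose and 13.7% fell with osimertinib, and 16.5% rose and 14.5% fell with cisplatin. PSAT1, of serine synthesis, was 7.33, 7.04 and 7.18 with osimertinib, 6.82, 6.87 and 6.82 with cisplatin and 6.10, 6.18 and 6.31 with vehicle. Its 3 groups were ordered osimertinib, cisplatin, vehicle from high to low, and it rose by 0.98 (SE 0.0889, adjusted p = 3.58e-06) with osimertinib and 0.64 (SE 0.0889, adjusted p = 0.000132) with cisplatin. SESN2, a stress-induced inhibitor of mTORC1 signalling, was 6.02, 6.02 and 5.93 with osimertinib, 6.43, 6.58 and 6.56 with cisplatin and 4.95, 5.07 and 5.33 with vehicle. It rose by 0.87 (SE 0.105, adjusted p = 4.13e-05) with osimertinib and 1.41 (SE 0.105, adjusted p = 7.35e-07) with cisplatin, and it was lower with osimertinib than with cisplatin, at a difference of -0.54 (SE 0.105, adjusted p = 0.0192). That difference was lost without cisplatin replicate 2 or 3 or any osimertinib replicate (adjusted p = 0.0587 to 0.101). PHGDH and SHMT2, also of serine and glycine metabolism, rose by 0.56 and 0.40 with osimertinib and by 0.43 and 0.29 with cisplatin. The PHGDH cisplatin call was lost without vehicle replicate 3 or cisplatin replicate 2 or 3 (adjusted p = 0.0776 to 0.157) and with no level limit (adjusted p = 0.0741). That of SHMT2 was lost without any 1 array other than osimertinib replicate 3 (adjusted p = 0.0504 to 0.152) and with no level limit (adjusted p = 0.076). PSPH, which completes serine synthesis, differed by -0.09 (SE 0.13, adjusted p = 0.631) with osimertinib and -0.35 (SE 0.13, adjusted p = 0.0571) with cisplatin, so the genes of serine synthesis did not all lean one way. Asparagine synthetase, ASNS, differed by 0.24 (SE 0.116, adjusted p = 0.141) with osimertinib and 0.15 (SE 0.116, adjusted p = 0.37) with cisplatin.

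For the lists that follow, osimertinib raised 16.9% and lowered 13.7% of all tested genes, and cisplatin raised 16.5% and lowered 14.5%. In the mTORC1 and eIF4F list, 1 of 8 genes rose with each drug and 0 fell. It was PDCD4, an inhibitor of the eIF4A helicase, at 7.83, 7.78 and 7.58 with osimertinib, 7.34, 7.38 and 7.39 with cisplatin and 6.87, 6.87 and 6.73 with vehicle. The groups were apart, with osimertinib highest, and PDCD4 rose by 0.91 (SE 0.0779, adjusted p = 2.45e-06) with osimertinib and 0.55 (SE 0.0779, adjusted p = 0.000148) with cisplatin. It was higher with osimertinib than with cisplatin by 0.36 (SE 0.0779, adjusted p = 0.0342), a call lost without vehicle replicate 1 or 2, any cisplatin replicate, or osimertinib replicate 1 or 2 (adjusted p = 0.0514 to 0.141), and with no level limit or without a variance trend (adjusted p = 0.0872 to 0.0954). MTOR itself differed by -0.12 with osimertinib and -0.25 with cisplatin and did not pass. Of 4 tested initiation helpers, osimertinib raised both that modulate the poly(A)-binding protein. These were PAIP1, by 0.43 (SE 0.0974, adjusted p = 0.00406), and PAIP2, by 0.45 (SE 0.105, adjusted p = 0.00499). PAIP2B, of the same list, was below the level limit at 3.18 and was not tested. Cisplatin raised PAIP2 by 0.38 (SE 0.105, adjusted p = 0.0134), a call lost without vehicle replicate 3 or cisplatin replicate 2 (adjusted p = 0.0519 to 0.0645) and with the mean over its rows (adjusted p = 0.0782). PAIP1 differed by 0.23 (SE 0.0974, adjusted p = 0.096) with cisplatin.

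Past initiation, 1 of 7 elongation genes rose with each drug and 0 fell. The shares over all tested genes were 16.9% higher and 13.7% lower with osimertinib, and 16.5% and 14.5% with cisplatin. EEF2, the translocase, rose by 0.27 (SE 0.0499, adjusted p = 0.00109) with osimertinib and 0.22 (SE 0.0499, adjusted p = 0.00401) with cisplatin, where the cisplatin call was lost without a variance trend (adjusted p = 0.0558). Of 2 termination and rescue genes, GSPT1, the release factor eRF3a, rose by 0.43 (SE 0.0718, adjusted p = 0.000497) with osimertinib and 0.40 (SE 0.0718, adjusted p = 0.000934) with cisplatin, and HBS1L did not pass with either drug. Among 7 mitochondrial translation genes, osimertinib raised GATB, of the glutaminyl-tRNA amidotransferase, by 0.37 (SE 0.122, adjusted p = 0.0353). That call was lost without vehicle replicate 1 or 3 or osimertinib replicate 1 or 3 (adjusted p = 0.0517 to 0.146) and with no level limit (adjusted p = 0.0623). Cisplatin lowered MRRF, the ribosome recycling factor, by 0.72 (SE 0.2, adjusted p = 0.0151), a call lost without vehicle replicate 3 (adjusted p = 0.0718). MRRF read 5.83, 5.67 and 5.85 with osimertinib, 4.86, 5.67 and 5.83 with cisplatin and 5.92, 6.23 and 6.36 with vehicle. Cisplatin replicate 1 thus lay well below the other arrays of its group. Of 3 genes related to synthetases or tRNA editing, limma called 0 with either drug, with 0 at an unadjusted p under 0.05. The unadjusted limma p was under 0.05 for 40.4% of all tested genes with osimertinib and 40.7% with cisplatin.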

How the data were processed

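Total RNA of 9 cultures was measured, 1 array each. Groups, doses, replicate numbers and the time of the drug arrays come from the labels. A service provider summarized the scans per gene with standard Affymetrix pipelines, per the labels' design text. Per the submitters' processing notes the software was Affymetrix Power Tools, with no version stated. How background was removed, how probes were summarized and which log base was taken is not stated in the sources available to this work. The deposited values of the authors run from 0.65 to 13.17 and were read as log2. With another base every fold given here would change and the calls would not. Array medians lay close together in the deposited table, and a shift shared by most transcripts would not be visible in values scaled that way.

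The platform annotation, which can be old, named 16098 of 53617 rows. All matched the RefSeq gene table of GRCh38.p14. The 7442 genes at or above 4.28 entered 1 model of 3 group means in limma 3.58.1 (R 4.3.3), with empirical Bayes, a variance trend and robust fitting. Two-sided p-values were adjusted by Benjamini-Hochberg over these genes and called under 0.05. SE and 95% intervals are from that fit, and each adjusted p in the text is from limma. The code for the fit was first tested on simulated data.

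Values on all arrays are given for called members, up to 12 a contrast by size, and for fixed members, and up to 4 genes of each pathway list by p. The members and lists were chosen with earlier results of these data known. The 15 alternatives were 9 single arrays left out and 6 other settings (no level limit, mean over rows of a gene, quantile normalization, median centring, no variance trend, and a replicate block). Calls lost under the replicate block are named together below and are left out of the settings listed with each gene.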

Additional observations from a re-analysis of the deposited data

How the results depend on the processing

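No called difference of a member turned its direction in the 15 alternatives: of 540 values for the called members and 4 fixed ones, 466 stayed on their side of the threshold and 74 lost a call. Synthetases that rose with cisplatin came to 4 with no level limit and to 4 with the replicate number as a block, against 7, and ranged from 4 to 7 with 1 array left out. Those that rose with osimertinib ranged from 6 to 10 with 1 array left out and came to 12 with quantile normalization, 10 with median centring, against 8. These 2 settings also moved the osimertinib median of all tested genes up, from 0.04 to 0.11 and 0.10. Initiation members that rose with osimertinib came to 7 with quantile normalization and 5 with median centring, against 5. The part of the shifted median in the larger counts was not tested. Of members that fell, each count of 1 (QARS1 with each drug, EIF4ENIF1 with osimertinib, EIF4EBP2 with cisplatin) came to 0 with no level limit, with median centring and without a variance trend. With quantile normalization, 2 synthetases fell with each drug. With 1 array left out, synthetases that fell ranged from 0 to 2 with each drug, initiation members that fell from 0 to 2 with osimertinib and from 0 to 1 with cisplatin, and those that rose from 3 to 5 with osimertinib and from 4 to 5 with cisplatin. With the block, the cisplatin calls of GARS1, RARS1 and YARS1 (adjusted p = 0.0565, 0.0622 and 0.0730) and SHMT2 (0.0733) were lost, as were the osimertinib calls of AIMP1 (0.0723), ATF3 (0.0515) and GATB (0.0557), while EIF4EBP2 passed with osimertinib (0.0484). The replicate block gave 5 initiation members higher and 2 lower with osimertinib, 4 and 1 with cisplatin, and 0 members between the drugs. Deviations of arrays with the same number correlated at -0.227 to 0.126 over 9 pairs, and those with different numbers at -0.118 to 0.197 over 18. The values thus showed no pairing by number. With 3 arrays a group, they cannot tell whether replicates of 1 number were prepared together. Signal over background was not measured.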

Other observations

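Some members were read by a second, dimmer row, and these values were picked out after being seen. The other row of EIF4B, a cofactor of the eIF4A helicase, was 6.56, 6.85 and 6.35 with osimertinib, 6.16, 6.43 and 6.47 with cisplatin and 5.98, 6.03 and 6.15 with vehicle. All treated arrays lay above the vehicle arrays there, while the brightest row overlapped between groups. With the mean over both rows EIF4B rose with osimertinib by 0.29 (SE 0.0793, adjusted p = 0.0142 in limma), and the cisplatin difference was 0.11 (adjusted p = 0.344).

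The other row of WARS1 was 4.98, 4.98 and 5.02 with osimertinib, 5.07, 5.20 and 4.99 with cisplatin and 4.40, 4.98 and 4.76 with vehicle. It leaned upward where the brightest row leaned downward, and the mean over both differed by 0.04 with osimertinib and 0.08 with cisplatin. The rows of VARS1 gave 0.13 with osimertinib and 0.14 with cisplatin as a mean, and neither passed.

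Of the 4 members below the level limit, EIF5AL1 rose with osimertinib by 0.53 (SE 0.157, adjusted p = 0.0412 in limma with no level limit), and its cisplatin difference was 0.36 (adjusted p = 0.169). Its close relation to EIF5A means that probes may not part them, and EIF5A itself did not pass with either drug. EIF4E1B differed by 0.27 with osimertinib (adjusted p = 0.125) and EIF1B-AS1 and EIF3J-DT by 0.10 and 0.06.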
